A study of Mus musculus with 2 samples.

Results

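The genes described here are 10 marker and factor genes of dendritic cells: Zbtb46, Flt3, Itgax, Xcr1, Clec9a, Itgae, Id2, Cd209a, Tcf4 and Siglech. They are 10 of the 21887 protein-coding genes of the RefSeq table. They were selected on being dendritic cell markers and on the summits called within 10 kb of such markers in these same 2 libraries, so their counts and scores are a description and carry no test. For each gene, every called peak summit inside its outer bounds and within 50 kb on either side was collected. The profiles are of acetylation of lysine 27 on histone H3 (H3K27ac), measured by CUT&Tag, in which an antibody brings a transposase to marked chromatin and the released fragments are sequenced. Colonic macrophages were sorted from untreated male C57BL/6 mice aged 11.1 weeks as cells negative for Siglec-F, low for Ly6C and positive for CD64. The genotype labelled WT carried Lyz2-Cre alone. The other, labelled Tle4cKO, carried Lyz2-Cre together with a floxed Tle4 gene (Tle4f/f), so the Cre transgene is common to both. The Lyz2 promoter drives Cre in macrophages, monocytes and neutrophils. Cells of 4 mice were pooled for each genotype, which leaves 1 library per genotype, no replicate, no test between genotypes and no measure of the spread between mice.

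Dendritic cells take up antigen and present it to T cells. The conventional kind falls into type 1 cells, which present antigen of dead cells to cytotoxic T cells, and type 2 cells, which mainly prime helper T cells, while plasmacytoid cells secrete interferon. They share surface proteins and regulators with macrophages, and the colon holds both, so a macrophage sort is commonly checked for dendritic cell genes. H3K27ac marks active promoters and enhancers, and an enhancer can lie inside or beside a gene that it does not regulate.

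On the standard chromosomes 10474 summits were listed for WT and 2350 for Tle4cKO. A summit is the single base where a peak is highest, and its deposited score was taken, from the layout of the files, to be a −log10 p- or q-value for that peak. Scores are compared here by rank within a list, with rank 1 the highest. Median scores were 4.47 (WT) and 4.05 (Tle4cKO). The sequencing depth is unknown. A gene without a summit is one where no peak was called, which does not show that the mark was absent. In pooled cells, fewer marked cells and less mark per cell cannot be told apart.

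With the lists as deposited, summits were called around nearly all of the genes in WT and around fewer in Tle4cKO. The Tle4cKO summits lay inside the named gene for Tcf4 alone and only in a neighbour for Itgax. For Xcr1 they lay both in a neighbour and nearest to Xcr1 itself. That of Clec9a lay upstream of Clec9a, inside the bounds of Clec12b, which cover Clec9a too. A WT summit lay in the gene or within 50 kb for 9 of the 10 genes, where 59.6% of all protein-coding genes had one. Selection drew on summits within 10 kb of such markers in these libraries, so a high count was partly built in. A Tle4cKO summit did for 4, Itgax, Xcr1, Clec9a and Tcf4, against a background of 22.9%. Within 10 kb the counts were 9 for WT (background 39.2%) and 3 for Tle4cKO (background 11.6%), as the Tle4cKO summits of the Itgax window lay further out. Inside the gene itself, 4 of the 10 had a WT summit (Zbtb46, Flt3, Itgae and Tcf4), where 25.3% of all protein-coding genes did, and Tcf4 alone of the 10 had a Tle4cKO summit, where 7.26% did. Long genes hold summits more often: the WT background inside the gene was 15.6% for genes under 20 kb, 35.2% for genes of 20 to 100 kb and 41.3% for genes over 100 kb, and the Tle4cKO background was 3.9%, 10.5% and 13.5%. The 5 genes under 20 kb, Xcr1, Clec9a, Id2, Cd209a and Siglech, had no summit inside their bounds in either library. The windows held 24 WT and 6 Tle4cKO summits in all. The order of these counts depended on list length: with the WT list cut to its 2356 highest scores, 2 genes and 5 summits were counted in WT against 4 genes and 6 summits in Tle4cKO. The cut kept WT scores of at least 6.37, while Tle4cKO scores down to 1.37 stayed. The share of all protein-coding genes was not counted for the cut list, so these small counts have no background beside them.

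**Figure D1:**
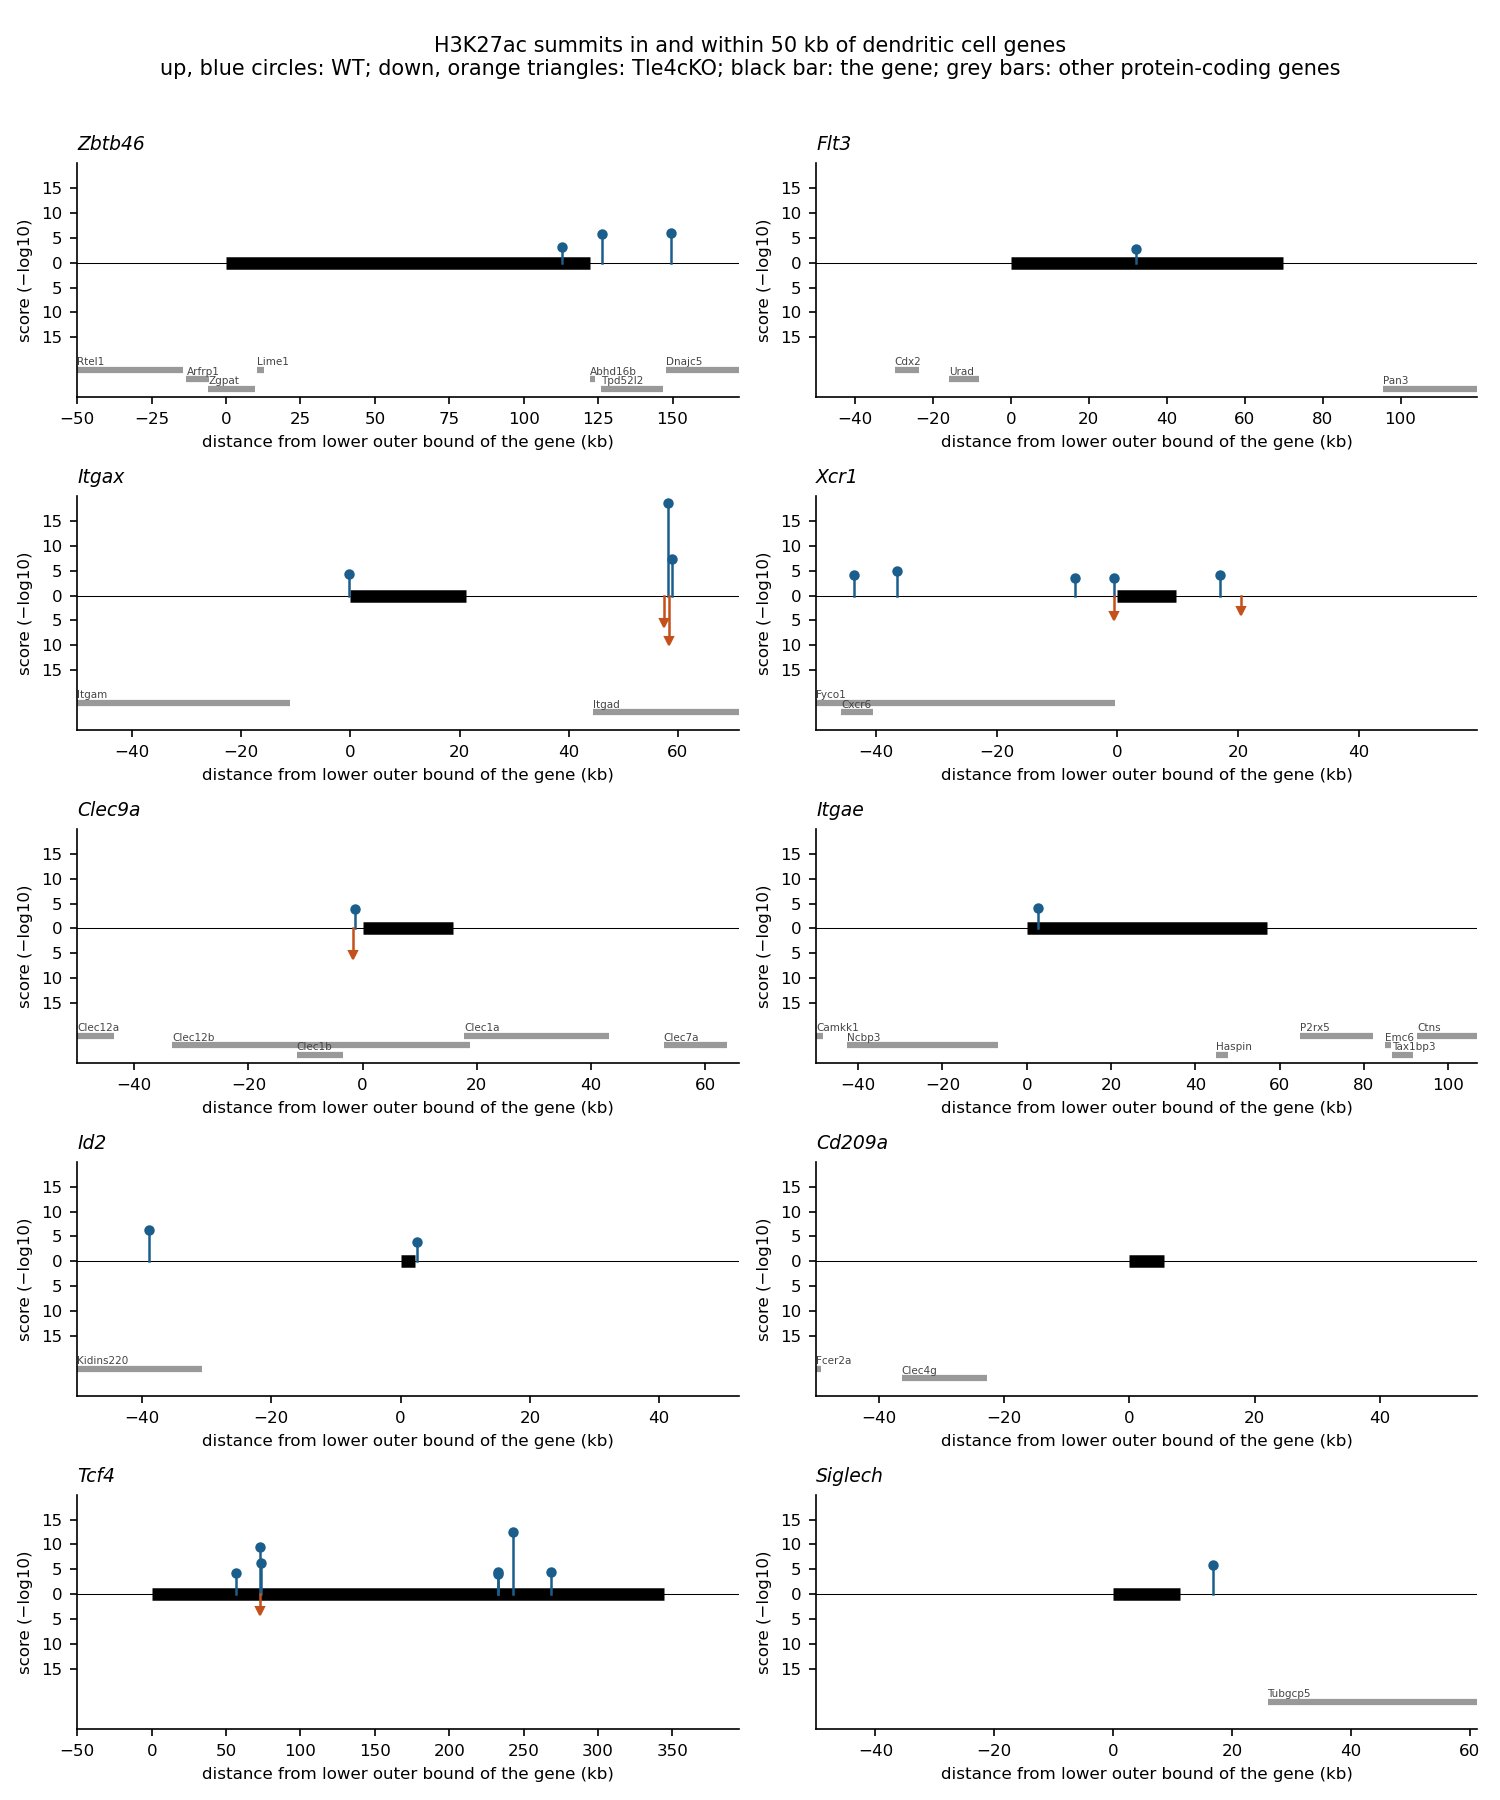
Maps of the 10 gene windows, with distance from the lower outer bound of each gene in kb on the x axis and the score of each summit on the y axis, WT upward and Tle4cKO downward. Black bars are the named genes and grey bars other protein-coding genes. The 7 WT summits of Tcf4 lie inside the gene, while the 2 Tle4cKO summits of the Itgax window lie in Itgad.

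The genes shared by all conventional dendritic cells each had a single WT summit nearest to them, scoring below the WT median, and no Tle4cKO summit nearest to them. Zbtb46 encodes a zinc finger factor that marks the conventional dendritic cell lineage. It spans 181371009 to 181493262 of chromosome 2 (mm10, as are all positions here). Inside it lay 1 WT summit at 181484033, 9229 bp from the upper outer bound, with a score of 3.22 and rank 8227 of 10474. This summit was 59645 bp before the listed Zbtb46 start, on the minus strand. The nearest listed start was that of Abhd16b, 9173 bp away. The other 2 WT summits of the Zbtb46 window scored higher and lay in neighbours. The summit at 181497271 (score 5.81, rank 2942) was 129 bp after the start of Tpd52l2, a gene of the tumour protein D52 family. That at 181520476 (score 5.86, rank 2886) lay inside Dnajc5, which encodes a chaperone of secretory vesicles. No Tle4cKO summit was called in this window, and the nearest one lay 410.2 to 446.7 kb from these 3 WT summits. Flt3, the receptor for the growth factor that drives dendritic cell development, spans 147330741 to 147400489 of chromosome 5. Its window held a single WT summit, at 147362969 inside the gene, 37520 bp after the transcription start. Its score of 2.68 (rank 9374) was the lowest of the 24 WT summits, and the nearest Tle4cKO summit was 498.2 kb away.

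Itgax encodes CD11c, the integrin alpha X subunit, which many tissue macrophages carry as well as dendritic cells. It spans 128129526 to 128150657 of chromosome 7. A WT summit at 128129224 lay 326 bp before its transcription start, with a score of 4.25 and rank 5755, and the nearest Tle4cKO summit was 57.7 kb away. The other summits of the window lay in the neighbouring Itgad, which encodes the related integrin alpha D subunit, and included the highest score of all 10 windows in each library. In WT they were at 128187745 (score 18.6, rank 112) and at 128188360 (score 7.23, rank 1611). In Tle4cKO the summits were at 128187811 (score 9.10, rank 185 of 2350) and at 128186926 (score 5.47, rank 620). The higher summits of the libraries were 66 bp apart, inside Itgad and 37088 and 37154 bp beyond the upper bound of Itgax. The Itgax window therefore combined a WT summit at the start of Itgax with a region called in both libraries inside its neighbour.

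The RefSeq promoters (GRCm38.p6) of Itgax and Id2 are shown because these were the 2 genes of the set with a WT summit within 1 kb of a listed transcription start. Of the 10 genes, 8 had a promoter in the table. Tcf4 and Itgae had none. Within 1 kb of a start, a WT summit was called for 25% of the 17492 protein-coding genes in the table and a Tle4cKO summit for 6.92%. Of the 8 genes, 2 had a WT and 0 a Tle4cKO summit there. Each promoter runs from 250 bases before to 50 bases from the start, 5′ to 3′ on the gene's strand, and capitals mark matches to any of the motifs searched.

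Itgax, chr7:128129300-128129599, plus strand: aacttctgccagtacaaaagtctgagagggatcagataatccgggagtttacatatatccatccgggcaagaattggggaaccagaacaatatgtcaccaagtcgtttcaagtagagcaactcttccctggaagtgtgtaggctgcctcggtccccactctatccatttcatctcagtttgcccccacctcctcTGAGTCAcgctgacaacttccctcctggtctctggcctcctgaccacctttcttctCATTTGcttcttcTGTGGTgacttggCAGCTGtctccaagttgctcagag
Id2, chr12:25096043-25096342, minus strand: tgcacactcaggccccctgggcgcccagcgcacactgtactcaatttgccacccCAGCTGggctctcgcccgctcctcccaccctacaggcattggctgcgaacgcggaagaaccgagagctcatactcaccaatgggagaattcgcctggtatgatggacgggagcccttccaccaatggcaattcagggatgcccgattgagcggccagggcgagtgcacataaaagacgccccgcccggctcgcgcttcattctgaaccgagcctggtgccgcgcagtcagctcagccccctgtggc

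The motifs searched on both strands were GAGGAAGT (PU.1 type), TGANTCA (AP-1), TTGCNNAA (C/EBP type), TGTGGT (RUNX), CANNTG (E-box), TGGGAA (core of the RBPJ site), the ETS-IRF composite element and the core of the interferon-stimulated response element. The last pair can overlap each other, and the composite element can overlap the PU.1 type. In the Itgax promoter, counted from its 5′ end, TGAGTCA began at base 195, TGTGGT at base 264, and E-box matches at bases 251 and 277. In the Id2 promoter the only match was the E-box CAGCTG at base 55. An E-box was held by 69.0% of the 21263 promoter windows of protein-coding genes, TGANTCA by 6.99% and TGTGGT by 15.0%. The motifs without a match in either promoter were held by 3.13% (GAGGAAGT), 10.2% (TTGCNNAA), 24.5% (TGGGAA), 2.53% (the composite element) and 3.35% (the interferon element) of the windows. These matches describe letters and were not read as sites of binding. The WT summit of Itgax lay outside its printed window, further upstream, while that of Id2 fell on base 3 of its window.

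Among genes of type 1 conventional dendritic cells, Xcr1 and Clec9a had a summit pair called in both libraries beside the gene, and Itgae and Id2 had WT summits alone. Xcr1, the receptor for the chemokine XCL1, spans 123852315 to 123862029 of chromosome 9 on the minus strand. No summit of either library lay inside it. The pair was at 123851792 in WT (score 3.58, rank 7300) and at 123851803 in Tle4cKO (score 4.06, rank 1158), 11 bp apart. It lay 523 and 512 bp beyond the lower bound of Xcr1, which is the end of that gene. The same positions were 107 and 96 bp after the listed start of Fyco1, which encodes an adaptor for the transport of autophagosomes. Fyco1 is on the same strand and a second start is listed for it at 123851661, so the pair lay between both of its starts.

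The promoter of that second start is shown because it contains both summits of the pair, at base 120 in WT and base 109 in Tle4cKO. The promoter of Xcr1 is shown beside it because it contains none.

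Fyco1, chr9:123851612-123851911, minus strand: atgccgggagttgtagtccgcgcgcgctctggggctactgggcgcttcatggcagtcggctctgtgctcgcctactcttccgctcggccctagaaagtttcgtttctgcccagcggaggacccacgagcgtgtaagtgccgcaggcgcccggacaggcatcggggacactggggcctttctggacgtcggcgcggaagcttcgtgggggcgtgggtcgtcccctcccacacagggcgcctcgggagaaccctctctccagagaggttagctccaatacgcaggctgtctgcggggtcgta
Xcr1, chr9:123861980-123862279, minus strand: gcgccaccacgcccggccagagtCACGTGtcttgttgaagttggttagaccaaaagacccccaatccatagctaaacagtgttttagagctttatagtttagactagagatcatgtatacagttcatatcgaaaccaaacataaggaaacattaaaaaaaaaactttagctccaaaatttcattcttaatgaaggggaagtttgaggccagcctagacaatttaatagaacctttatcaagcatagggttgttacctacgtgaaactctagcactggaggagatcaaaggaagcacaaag

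None of the motifs matched in the Fyco1 window, and the Xcr1 window held the E-box CACGTG at base 24. The G and C content was 66.0% in the Fyco1 window and 40.0% in that of Xcr1, with a median of 56.3% over the promoter windows of protein-coding genes. The remaining summits around Xcr1 were called in 1 library each. A WT summit 7330 bp before the Xcr1 start, at 123869359 (score 4.12, rank 6015), and a Tle4cKO summit 10810 bp before it, at 123872839 (score 3.16, rank 1713), were 3480 bp apart. Xcr1 was the nearest protein-coding gene to both, and the non-coding gene Gm2774 lay closer. The other 3 WT summits lay inside Fyco1. They were at 123845341 (score 3.46, rank 7579, 6462 bp from the nearest Tle4cKO summit), at 123815723 (score 4.93, rank 4340, 36.1 kb) and at 123808553 (score 4.19, rank 5855, 43.3 kb). The last of these lay also inside Cxcr6, a chemokine receptor gene nested in Fyco1.

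Clec9a encodes a receptor for actin of dead cells and spans 129408862 to 129424764 of chromosome 6. Its only summits were a WT one at 129407599, 1263 bp before the start (score 3.84, rank 6691), and a Tle4cKO one at 129407207, 1655 bp before it (score 5.24, rank 684). They were 392 bp apart. The outer bounds of Clec12b, an inhibitory lectin receptor gene on the opposite strand, run from 129375513 to 129427634 and cover both summits and all of Clec9a. By the rule of the nearest outer bounds the pair was therefore assigned to Clec12b, although the listed start of Clec12b, at 129385503, was further away than that of Clec9a. Itgae encodes CD103, the integrin alpha E subunit that binds E-cadherin, and is also carried by lymphocytes in the gut epithelium. It spans 73090505 to 73147449 of chromosome 11 and held 1 WT summit, at 73093273, 2768 bp inside the lower bound (score 4.04, rank 6266). The nearest Tle4cKO summit was 297.7 kb away. Id2, an inhibitor of E proteins that is needed for type 1 cells and is also used by lymphoid cells and macrophages, spans 25093799 to 25096092 of chromosome 12. Its WT summit at 25096340, 248 bp before the start, had a score of 3.81 and rank 6791. A second WT summit of the window, at 25054841 (score 6.26, rank 2474), lay inside Kidins220, a gene for a membrane scaffold protein. No Tle4cKO summit was called within 3539.3 kb of the Id2 start summit.

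Cd209a, a lectin receptor gene of type 2 cells and of some monocyte-derived cells, was the only gene of the 10 with no summit in its window. It spans 3743395 to 3748984 of chromosome 8. The nearest WT summit lay 112.1 kb and the nearest Tle4cKO summit 864.5 kb from its bounds.

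Of the genes of plasmacytoid dendritic cells, Tcf4 had more WT summits than any other gene of the set, all inside the gene. Tcf4 encodes E2-2, the E protein that directs plasmacytoid cell identity and that is also used in B cells and neurons. It is distinct from Tcf7l2, a Wnt pathway gene whose protein is often called TCF4. Tcf4 spans 69343429 to 69687967 of chromosome 18, and no other protein-coding gene lay in its window. A first group of WT summits lay 16.5 to 21.2% of the gene length from the lower bound. It held summits at 69400251 (score 4.26, rank 5724), 69416107 (score 9.54, rank 714) and 69416613 (score 6.38, rank 2338), the last pair 506 bp apart. A second group lay at 67.5 to 77.8% of the length. It held summits at 69575996 (score 4.48, rank 5221) and 69576506 (score 4.05, rank 6174), which were 510 bp apart, at 69586340 (score 12.5, rank 299) and at 69611503 (score 4.53, rank 5116). Between the groups, 159.4 kb of the gene held no WT summit.

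The single Tle4cKO summit of Tcf4 belonged to the first group. It lay at 69416111, 4 bp from the WT summit of score 9.54, with a score of 3.42 and rank 1529 of 2350. The WT summit at 69416613 was 502 bp from it. The 4 WT summits of the second group had no Tle4cKO summit nearer than 159.9 kb, and among them was the highest-ranked WT summit of the gene. So the WT summit of Tcf4 that had a Tle4cKO partner was its second highest by score, and the highest had none.

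The number of WT summits in Tcf4 was set against other long genes. Of 557 protein-coding genes over 300 kb, 367 (65.9%) had no WT summit inside, and 10, Tcf4 included, had 7 or more. In Tcf4 2.03 WT summits were called per 100 kb of gene, and over all genes above 300 kb 0.138. A Tle4cKO summit lay inside 68 of these 557 genes (12.2%). Across all 21887 protein-coding genes, 13 held 7 or more WT summits. Tcf4 was chosen with its summits known, so these numbers place it and do not test it.

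**Figure D2:**
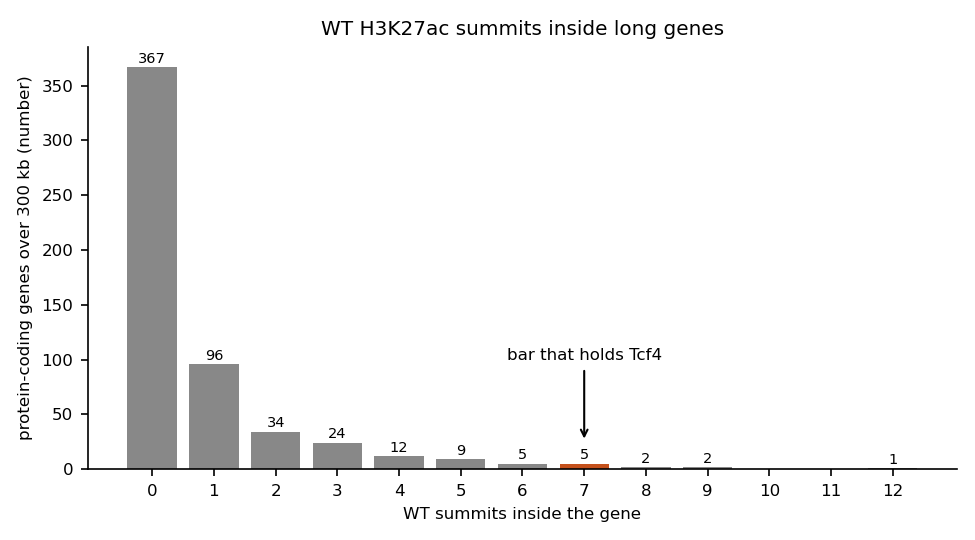
Number of protein-coding genes over 300 kb (y axis) by the number of WT summits inside the gene (x axis). The orange bar, at 7 summits, holds 5 genes, of which Tcf4 is 1, and the bar at 0 summits holds 367.

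Siglech encodes a surface receptor of plasmacytoid dendritic cells and spans 55768154 to 55779448 of chromosome 7. Its window held 1 WT summit, at 55784973 (score 5.94, rank 2774), which lay 5525 bp beyond the end of the gene. The nearest listed start was that of Tubgcp5, a gene of the microtubule nucleating complex, 9152 bp further on. The nearest Tle4cKO summit was 57.4 kb away and outside the window.

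When each WT summit was given to its nearest protein-coding gene, 14 of the 24 went to the named gene and 10 to a neighbour. Among the 10 was the summit 1263 bp before the Clec9a start, given to Clec12b because the bounds of Clec12b cover all of Clec9a. By this rule 8 of the 10 genes had a WT summit, where 32.6% of all protein-coding genes did, and 2, Tcf4 and Xcr1, had a Tle4cKO summit (background 10%). Tcf4 accounted for 7 of the 14. The 7 summits of the other genes had scores of 2.68 to 5.94 with a median of 4.04, and 6 of them, all but that of Siglech, scored below the WT median of 4.47. The 10 summits given to neighbours had scores of 3.46 to 18.6 with a median of 5.37, and 6 scored above the WT median. These 6 lay in Itgad, which held 2 of them, and in Kidins220, Dnajc5, Tpd52l2 and Fyco1. In Tcf4, 5 of 7 scored above the WT median.

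**Figure D3:**
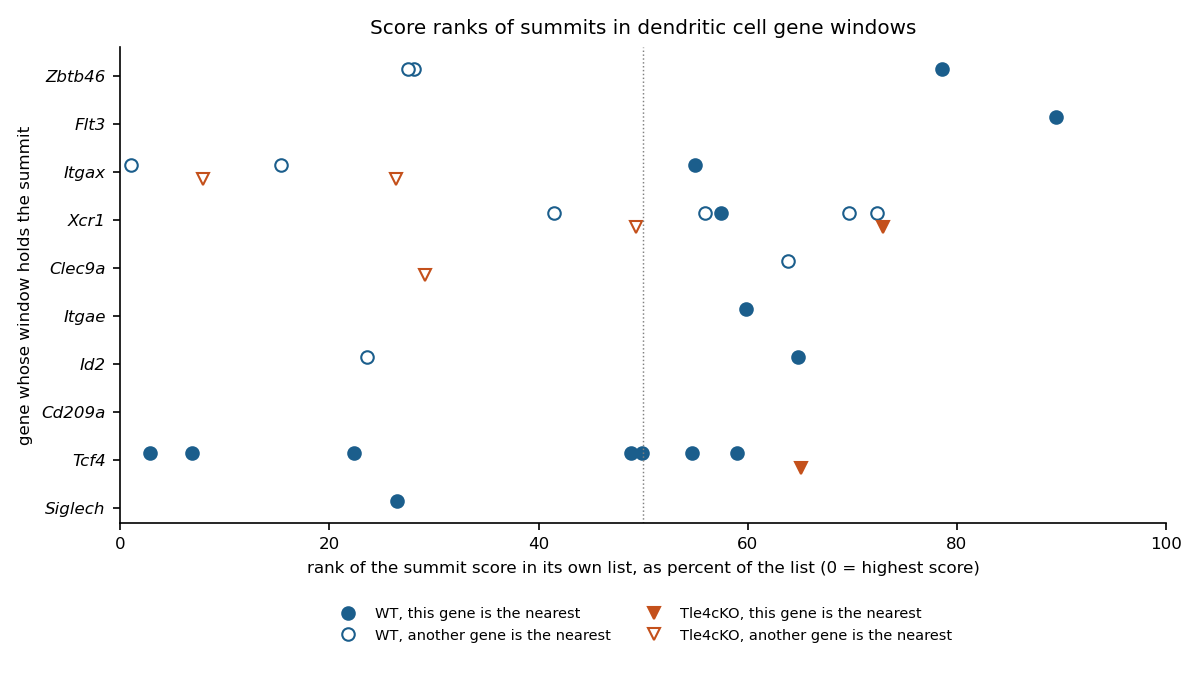
Rank of each summit's score within its own list as a percent of the list (x axis, 0 is the highest score), by the gene whose window holds it (y axis). Circles are WT and triangles Tle4cKO, filled where the named gene is the nearest protein-coding gene; the filled circle furthest left, in the top 2.85%, is in Tcf4, and the open circle furthest left, in the top 1.07%, lies in Itgad.

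Sharing between the libraries in these windows was near that of the whole lists. Of the 24 WT summits, 4 (16.7%, exact Clopper-Pearson 95% interval 4.74 to 37.4%) lay within 500 bp of a Tle4cKO summit, against 18% of all WT summits. Of the 6 Tle4cKO summits, 4 (66.7%, 22.3 to 95.7%) lay as close to a WT summit, against 79.7% of the whole list. These intervals treat summits as independent, although 7 of the 24 WT summits lay in Tcf4 and some summits lay close together. The windows held 4.00 WT summits for each Tle4cKO summit, and the whole lists 4.46. A shared pair lay within 50 kb for 4 of the 10 genes, where 19.2% of protein-coding genes had one. Only the Tcf4 pair lay inside the named gene, where 6.02% of protein-coding genes had one, and the Itgax, Xcr1 and Clec9a pairs lay inside the bounds of Itgad, Fyco1 and Clec12b. The widest pair counted was that of Clec9a at 392 bp, and the WT summits just past the limit were those at 502 bp in Tcf4 and 549 bp in Itgad. At the edge of the windows, the furthest summit inside was the WT summit 43.8 kb from Xcr1 (score 4.19) and the closest outside was a WT summit 51.8 kb from Itgae (score 11.6).

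Wider lists of dendritic cell genes were counted inside the gene, within 10 kb and within 50 kb. Over 60 genes in 5 lists, 20 (33.3%, 95% interval 21.7 to 46.7%) had a WT summit inside the gene and 3 (5%, 1.04 to 13.9%) a Tle4cKO summit. The shares over all protein-coding genes were 25.3% in WT and 7.26% in Tle4cKO. The lists were chosen with earlier results of these data known, so the counts are a description and were not tested against these shares. Without the 10 named genes the counts inside the gene were 16 of 50 in WT and 2 of 50 in Tle4cKO. Within 50 kb they were 44 of 50 and 14 of 50. By list, a WT summit lay inside 6 of 10 genes of all conventional cells, 3 of 14 of type 1, 4 of 12 of type 2, 5 of 14 of plasmacytoid and 3 of 11 of mature cells. The list of all conventional cells has long genes, with a median of 51.6 kb. Wdfy4, needed in type 1 cells to cross-present antigen, held 2 WT and 2 Tle4cKO summits with highest scores of 10.2 and 3.78, and the closest pair was 49 bp apart. Relb, an NF-kB subunit, had a pair 275 bp apart (7.23 and 5.43). Cd40 (7.56) and Cd274 (5.90), which encode a costimulatory receptor and the ligand PD-L1, had WT summits alone inside the gene. Clec4a4 (10.00), Klf4 (6.45), Tlr3 (5.85), Irf7 (5.80) and H2-Ab1 (5.74) had a WT summit within 10 kb and none inside. Kmo, of the list of all conventional cells, held 1 WT summit (5.64) and had 1 Tle4cKO summit (2.29) within 10 kb, outside the gene. Cadm1, of the type 1 list, held 2 WT summits (highest score 4.70) and had no Tle4cKO summit within 10 kb. Irf8, the factor that type 1 cells depend on, had no summit inside or within 10 kb in either library, and its partner gene Batf3 had 1 WT summit (2.54) within 10 kb and none inside. Within 50 kb all 14 genes of the type 1 list, Irf8 included, had a WT summit (background 59.6%). A Tle4cKO summit lay within 50 kb for 5 of the 14 (background 22.9%).

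The sorted cells were labelled macrophages, and their markers were counted beside these lists. Of 20 macrophage genes, 10 (50%, 95% interval 27.2 to 72.8%) had a WT summit inside the gene and 0 (upper limit 16.8%) a Tle4cKO summit. Fcgr1, which encodes the CD64 antigen of the sort (5.49), Cd14 (5.73), Csf1r (3.46), Adgre1 (3.38), Mertk (4.43) and Cx3cr1 (3.95) were among the 10. Within 10 kb, the highest WT score at Cd14 was 7.01, and Aif1 had a WT summit of 6.70 outside the gene. A WT summit lay within 10 kb for 11 of the 20 genes and within 50 kb for 12. For Tle4cKO these counts were 0 and 1. Lyz2, C1qa, C1qb, C1qc, Apoe, Trem2 and Cd163 were among the genes with none inside in either library. The summed WT scores inside genes were 49.3 over the 20 macrophage genes and 169 over the 60 dendritic cell genes, and the summed Tle4cKO scores were 0 and 15.6. These sums grow with the number and length of the genes, whose median was 8.57 kb in the macrophage list and 17.0 kb in the dendritic cell lists, and are not compared. Of the sum of 169, Tcf4 gave 45.8, and the 50 genes without the 10 named ones gave 113. Inside the gene, WT summits lay in 1 of 10 genes of B and plasma cells (Xbp1, 5.33) and in 1 of 5 genes of neutrophils (Csf3r, 3.72). They lay in 0 of 9 genes of T cells, 0 of 8 of monocytes, 0 of 8 of innate lymphocytes and NK cells, 0 of 8 of epithelium and 0 of 5 of eosinophils. Tle4cKO summits lay in 1 monocyte gene, F13a1 (7.17), in Xbp1 (2.87) and in 1 gene of innate lymphocytes, Rora (2.76). They lay in no T cell, eosinophil, neutrophil or epithelial gene. Genes with a WT summit outside the gene but within 10 kb included Cd3g (5.14), Cdh1 (4.43), Ms4a1 (4.32) and Ccr3 (3.53). Jchain had a WT (2.77) and a Tle4cKO summit (2.10) there, 99 bp apart. Rora also had a WT summit within 10 kb, outside the gene, which scored above every WT summit of Tcf4. Several dendritic cell genes, such as Itgax, Id2, Spi1 and Sirpa, are also active in macrophages. Whether dendritic cells within the sort contributed to the summits was not tested.

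**Figure D4:**
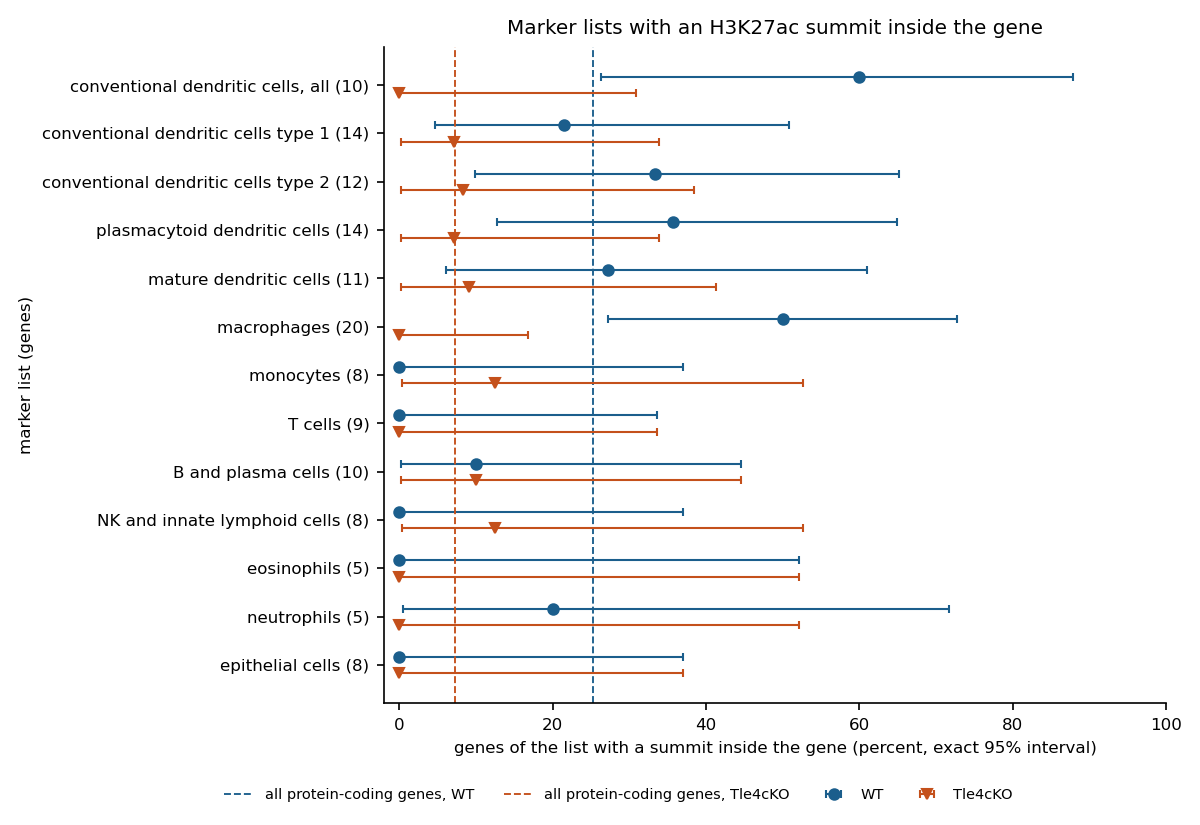
Share of each marker list with a summit inside the gene (x axis, percent, with exact 95% intervals), by list and its number of genes (y axis), circles for WT and triangles for Tle4cKO. Dashed lines are the shares over all protein-coding genes, 25.3% in WT and 7.26% in Tle4cKO, and the macrophage list stands at 50% in WT.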

How the data were processed

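H3K27ac CUT&Tag was measured in 1 library per genotype, each of colonic macrophages pooled from 4 mice. Reads were handled by the authors with cutadapt 1.14 and Bowtie2 2.2.5 on mm10, per the submitters' processing notes. Which peak caller was run, with what settings, control and depth, is not given in the sources used here. From the layout of the files and their lowest values, 1.35 and 1.37, the deposited scores were taken to be −log10 p- or q-values, without a statement of which. Deeper libraries give higher scores, so scores were ranked within a list (ties take the higher place).

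Autosomes, X and Y were kept, and 4 WT and 2 Tle4cKO mitochondrial summits were left out. Gene bounds came from RefSeq on GRCm38.p6, the assembly behind mm10. Transcription starts came from RefSeq promoters of the same assembly. No genome sequence was used here, so the planned sequences around summits were replaced by promoters. A summit was nearest to the gene whose outer bounds contained it or lay closest, and summits of both lists within 500 bp were partners. The members and lists were chosen with earlier results of these data known; the start measure was added after the data were seen. Of the 13 marker lists, 1 gene (Trbc2) was not matched. Beside the 10 members, the text names genes nearest to a summit of their windows, up to 3 genes per list by score within 10 kb, and defining markers. Further macrophage markers, Batf3 and Cadm1 were named after their values were seen. Intervals are exact Clopper-Pearson and cover counting error only. Python 3.11.15, pandas 2.3.3 and scipy 1.17.1 were used, and the counting steps were tested on simulated data. Alternatives were other windows, partner distances, a score minimum, a shortened WT list and non-coding genes as competitors.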

Additional observations from a re-analysis of the deposited data

How the results depend on the processing

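With the window reduced to the gene itself, the counts fell to 4 genes with a WT summit, 1 with a Tle4cKO summit and 1 with a shared pair, and to 10 WT summits, 1 Tle4cKO summit and 1 WT summit with a partner. With 10 kb the Tle4cKO summits numbered 3, and with 100 kb the WT summits with a partner numbered 7. At a score of at least 5 in both lists, 5 genes had a WT summit, 2 a Tle4cKO summit and 1 a shared pair, with 9 WT summits, 3 Tle4cKO summits, 1 WT summit with a partner and 4 WT summits nearest to the named gene. With the WT list cut to its 2356 highest scores (ties included), 2 genes, Itgax and Tcf4, had a WT summit and a shared pair, with 5 WT summits, 2 of them with a partner and 3 nearest to the named gene. The Tle4cKO counts stayed at 4 genes and 6 summits, so at like list length they exceeded those of WT, the reverse of the order with the lists as deposited. That cut dropped WT scores under 6.37 and kept Tle4cKO scores down to 1.37, and no background share was counted for it. With 2 kb around starts, an alternative chosen after seeing the data, 1 gene, Clec9a, had a Tle4cKO summit, where the main count was 0. The other 23 of 44 alternative values stayed within 1.5 times the main ones. No replicate could be left out, as each genotype had 1 library. No paired analysis was possible because each genotype had 1 library. Read depth was unknown, so a peak missing from the shorter list may be under its calling threshold.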
